A study of Mus musculus with 31 samples.

Results

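Surface and phagocytic genes of disease-associated microglia were followed through all groups of the study, namely *Clec7a*, *Axl*, *Cd9*, *Cd63*, *Cd68*, *Gpnmb*, *Lgals3*, *Lilrb4a*, *Cd200r4* and *Cd22*. They are 10 of the 55401 genes in the count tables, and all 10 were matched by gene name in each table. These genes were chosen by their level in microglia of amyloid-bearing mice compared with control mice, so that contrast is described here without a test. The 10 genes were tested in the comparisons of carriers and non-carriers of the PLCγ2-P522R variant, and in the chosen contrast tests are given for other genes only. Results of all these comparisons were known when the genes were listed, so these tests are not shown to be independent of the choice. All 10 passed the count minimum of 10 counts in at least 3 libraries in every comparison.

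The study used 31 RNA-seq libraries of mice aged 13 months. Female APPswe/PS1dE9 mice (A+, APP/PS1) carry a chimeric mouse/human APP with the Swedish mutation and human PS1dE9 under the mouse prion promoter, on a C57BL/6J background. This promoter is active mainly in the central nervous system. PLCγ2-P522R knock-in (KI) mice were made by CRISPR/Cas9 editing on the same background, and homozygous carriers are written Pki/ki and non-carriers Pwt/wt. CD11b+ microglia were taken from 7 A-/Pwt/wt, 4 A+/Pwt/wt and 4 A+/Pki/ki female mice, and from 3 wild type (WT) and 4 KI male mice without the APP/PS1 transgene. Temporo-occipital cortex came from 1 A-/Pwt/wt, 4 A+/Pwt/wt and 4 A+/Pki/ki female mice. KI mice without the transgene were male in all libraries analysed here, so sex and the transgene cannot be told apart when the KI contrasts are compared.

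Each library belongs to 1 mouse number, and n counts libraries. The labels of the CD11b+ libraries carry a batch tag, which was b1 for the males, b2 for the APP/PS1 females and b3 for the A-/Pwt/wt females. The transgene and the batch tag therefore cannot be told apart in CD11b+ microglia, whereas both genotypes of each KI contrast share a tag. The number 236 is used for a CD11b+ A-/Pwt/wt mouse and also for a cortical A+/Pwt/wt mouse, and the labels were followed in both cases. The total per library had a median of 21 M counts in female A-/Pwt/wt (range 19.5 to 21.6 M), 22.1 M in A+/Pwt/wt (18.9 to 23 M) and 23.3 M in A+/Pki/ki CD11b+ microglia (19 to 25.1 M). The medians were 17.3 M in male WT (16.6 to 19.7 M) and 17.1 M in male KI microglia (16.2 to 19.9 M). In cortex they were 30.5 M in A+/Pwt/wt (25.2 to 35.8 M) and 37.8 M in A+/Pki/ki mice (27.8 to 43.1 M), and the only A-/Pwt/wt library held 42.5 M. Levels are given as CPM, the counts of a gene scaled to the size of its library, after TMM scaling for differences in library composition.

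Microglia that contact amyloid leave their resting state and turn on genes for recognition, engulfment and lysosomal digestion, a state called disease-associated microglia (DAM). The 10 genes cover this path from the cell surface to the lysosome. *Clec7a* (Dectin-1) is a C-type lectin receptor that signals through the kinase Syk and phospholipase Cγ2, the protein that carries the variant. *Axl* is a TAM receptor tyrosine kinase that recognises exposed phosphatidylserine through bridging ligands. *Cd9* and *Cd63* are tetraspanins of the plasma membrane and of late endosomes, *Cd68* is a LAMP-family glycoprotein of the lysosome, *Gpnmb* is a transmembrane glycoprotein of endolysosomes, and *Lgals3* (galectin-3) is a β-galactoside-binding lectin found at damaged lysosomes. *Lilrb4a* and *Cd22* (Siglec-2) encode inhibitory receptors with immunoreceptor tyrosine-based inhibitory motifs, and *Cd200r4* belongs to the CD200 receptor family.

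The identity of the CD11b+ libraries was assessed with marker genes. The summed level of 12 homeostatic microglia markers averaged 17206 CPM in CD11b+ A+/Pwt/wt libraries (13220 to 20806 CPM). In cortex of the same genotype, the sum averaged 1002 CPM, where *Sparc* led at 320 CPM. The 15 neuron markers had the opposite order, with 1405 CPM in CD11b+ libraries and 14174 CPM in cortex, and *Camk2a* was the most abundant in both. The 10 oligodendrocyte markers, led by *Mbp*, summed to 38624 CPM in CD11b+ libraries and 5277 CPM in cortex. Thus, the CD11b+ libraries carried their label's markers together with RNA of neurons and myelin. The tables of CD11b+ microglia and cortex were scaled separately, so these values are set side by side without a test. Fewer cells of a type and less RNA per cell cannot be told apart in such bulk samples.

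The genes lie at separate loci. On GRCm38, *Clec7a* is at chromosome 6, 129461591 to 129472779, *Cd9* at chromosome 6, 125460266 to 125494791, and *Gpnmb* at chromosome 6, 49036546 to 49070929. *Axl* is at chromosome 7, 25757273 to 25788705, *Cd22* at chromosome 7, 30865402 to 30880342, *Cd63* at chromosome 10, 128900989 to 128912822, and *Lilrb4a* at chromosome 10, 51490956 to 51496611. *Cd68* is at chromosome 11, 69664213 to 69666153, *Lgals3* at chromosome 14, 47367751 to 47386160, and *Cd200r4* at chromosome 16, 44811733 to 44839150. Of the annotated genes, *Clec7a* is classed as a polymorphic pseudogene and the other 9 as protein coding. The counts of *Lilrb4a* are uncertain, since 29% of the 100-base windows of its transcript also occur in *Gm49339* or *Lilr4b*, and 1846 of its exon bases overlap *Gm49339* on the same strand. *Cd200r4* shares 0.577% of its windows with *Cd200r2*. Reads were counted irrespective of strand, so the 479 exon bases that *Cd22* shares with *Gm29439*, the 218 that *Cd9* shares with *Gm26728* and the 131 that *Lilrb4a* shares with *Gm40645* on the other strand are uncertain too.

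The upstream sequences of 3 members are shown for *Clec7a*, whose levels were apart in both tissues, for *Gpnmb*, which had the largest difference in CD11b+ microglia, and for *Cd68*, the member that followed the other 9 most closely. Each is the 250 bases before the RefSeq start of the gene on GRCm38.p6, 5′ to 3′ on the gene's own strand, and capitals mark matches to TGANTCA, the AP-1 motif.
Clec7a, chr6:129472780-129473029, minus strand: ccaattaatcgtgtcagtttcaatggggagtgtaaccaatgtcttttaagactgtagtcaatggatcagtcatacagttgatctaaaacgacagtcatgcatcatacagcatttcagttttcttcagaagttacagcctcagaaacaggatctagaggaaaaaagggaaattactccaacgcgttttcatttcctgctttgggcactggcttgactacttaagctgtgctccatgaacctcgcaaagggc
Gpnmb, chr6:49036268-49036517, plus strand: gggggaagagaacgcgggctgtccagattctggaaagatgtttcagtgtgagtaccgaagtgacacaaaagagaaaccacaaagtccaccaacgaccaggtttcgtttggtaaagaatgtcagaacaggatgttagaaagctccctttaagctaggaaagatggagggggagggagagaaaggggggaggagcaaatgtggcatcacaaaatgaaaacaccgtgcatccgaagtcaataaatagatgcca
Cd68, chr11:69666171-69666420, minus strand: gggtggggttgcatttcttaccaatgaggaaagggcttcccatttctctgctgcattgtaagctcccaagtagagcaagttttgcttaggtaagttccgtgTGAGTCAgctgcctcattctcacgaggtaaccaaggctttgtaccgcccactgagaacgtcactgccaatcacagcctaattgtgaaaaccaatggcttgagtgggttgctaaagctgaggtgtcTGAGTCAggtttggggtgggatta
Such windows were found for 9 of the 10 members. The windows were searched on both strands for 4 motifs, none of which contains another. The E-box CACGTG was in 0 of the 9 windows (6.02% of all 32851 windows), and CATGTG, the core bound by MITF-family factors, was in 2, those of *Cd9* and *Cd22* (12.3% of all windows). TGANTCA was in 1, that of *Cd68*, which holds it at 149 and 24 bases upstream (6.75% of all windows), and the ETS motif GGAAGT was in 1, that of *Cd63* (19.7% of all windows). No motif was therefore shared by more than 2 of the 9 windows.

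Among the surface receptors for ligands, *Clec7a* had a low level in A- microglia and a high one in both APP/PS1 genotypes. In CD11b+ A-/Pwt/wt mice, it ranged from 17 to 66 CPM (median 49.8 CPM). It was 198, 265, 306 and 373 CPM in the 4 A+/Pwt/wt mice, and 229, 296, 341 and 351 CPM in the 4 A+/Pki/ki mice. All 8 APP/PS1 libraries were far above the highest A- library, and the APP/PS1 genotypes overlapped. The log2FC against A-/Pwt/wt was 2.58 (SE 0.29) for A+/Pwt/wt and 2.65 (SE 0.29) for A+/Pki/ki.

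*Axl* was already expressed in A-/Pwt/wt microglia, between 94.3 and 170 CPM (median 125 CPM). It was 261, 284, 386 and 433 CPM in A+/Pwt/wt mice, and 243, 304, 382 and 403 CPM in A+/Pki/ki mice. All 8 APP/PS1 libraries were above all 7 A- libraries, with a log2FC of 1.39 (SE 0.19) and 1.34 (SE 0.18), respectively.

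The tetraspanins had high levels in each group and smaller differences. *Cd9*, which is also abundant in oligodendrocytes, ranged from 221 to 459 CPM in A-/Pwt/wt mice (median 375 CPM). It was 462, 648, 663 and 928 CPM in A+/Pwt/wt mice and 511, 772, 864 and 948 CPM in A+/Pki/ki mice. The lowest A+/Pwt/wt library was 462 CPM and the highest A- library 459 CPM, so the groups were barely apart. *Cd63* ranged from 150 to 323 CPM in A-/Pwt/wt mice (median 224 CPM), was 346, 403, 431 and 440 CPM in A+/Pwt/wt mice, and 392, 411, 501 and 514 CPM in A+/Pki/ki mice. The log2FC was 0.90 (SE 0.21) and 1.08 (SE 0.21) for *Cd9*, and 0.72 (SE 0.20) and 0.87 (SE 0.20) for *Cd63*.

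Of the lysosomal and endolysosomal members, *Cd68* ranged from 181 to 345 CPM in A-/Pwt/wt mice (median 297 CPM). It was 422, 645, 681 and 690 CPM in A+/Pwt/wt mice and 480, 675, 874 and 878 CPM in A+/Pki/ki mice. All APP/PS1 libraries were above all A- libraries, with a log2FC of 1.08 (SE 0.19) and 1.32 (SE 0.20).

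*Gpnmb* had the largest difference and the largest spread. It ranged from 3.93 to 23 CPM in A-/Pwt/wt mice (median 5.35 CPM). It was 105, 110, 396 and 480 CPM in A+/Pwt/wt mice and 73.8, 140, 196 and 432 CPM in A+/Pki/ki mice. The lowest APP/PS1 library was still above the highest A- library, and the log2FC was 4.93 (SE 0.57) and 4.54 (SE 0.57).

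*Lgals3* ranged from 7.73 to 22.3 CPM in A-/Pwt/wt mice (median 19.4 CPM). It was 20.6, 22.8, 25 and 31.3 CPM in A+/Pwt/wt mice and 20.6, 23.4, 29.7 and 30.2 CPM in A+/Pki/ki mice. Both APP/PS1 groups overlapped the A- group, with a log2FC of 0.54 (SE 0.24) and 0.58 (SE 0.24), the smallest of the 10.

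The remaining receptors, *Cd200r4* and the inhibitory *Lilrb4a* and *Cd22*, differed from one another. *Cd200r4* ranged from 0.773 to 2.15 CPM in A-/Pwt/wt mice (median 1.84 CPM). It was 7.38, 11.6, 13.5 and 17.8 CPM in A+/Pwt/wt mice and 8.81, 8.87, 16.4 and 16.4 CPM in A+/Pki/ki mice. The groups were far apart, and the log2FC was 2.88 (SE 0.28) and 2.87 (SE 0.28).

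*Lilrb4a* ranged from 9.45 to 40.3 CPM in A-/Pwt/wt mice (median 15.9 CPM). It was 38.6, 63, 86.6 and 88.9 CPM in A+/Pwt/wt mice and 34.6, 68.2, 121 and 173 CPM in A+/Pki/ki mice. The lowest library of each APP/PS1 genotype lay within the A- range, and the other 6 were above it. The log2FC was 1.66 (SE 0.40) and 2.17 (SE 0.47).

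*Cd22* ranged from 14.5 to 36.1 CPM in A-/Pwt/wt mice (median 27.9 CPM). It was 23.2, 37.5, 41.9 and 58.3 CPM in A+/Pwt/wt mice and 25, 41.2, 45.3 and 46.2 CPM in A+/Pki/ki mice. Here too, 1 library of each APP/PS1 genotype fell within the A- range, and the log2FC was 0.70 (SE 0.28) and 0.66 (SE 0.25). *Cd22* is best known from B cells. The 7 B cell markers summed to 354 CPM in A+/Pwt/wt and 286 CPM in A-/Pwt/wt libraries, of which *Ighm* alone made 346 and 274 CPM, and their part in the level of *Cd22* was not tested.

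**Figure D1:**
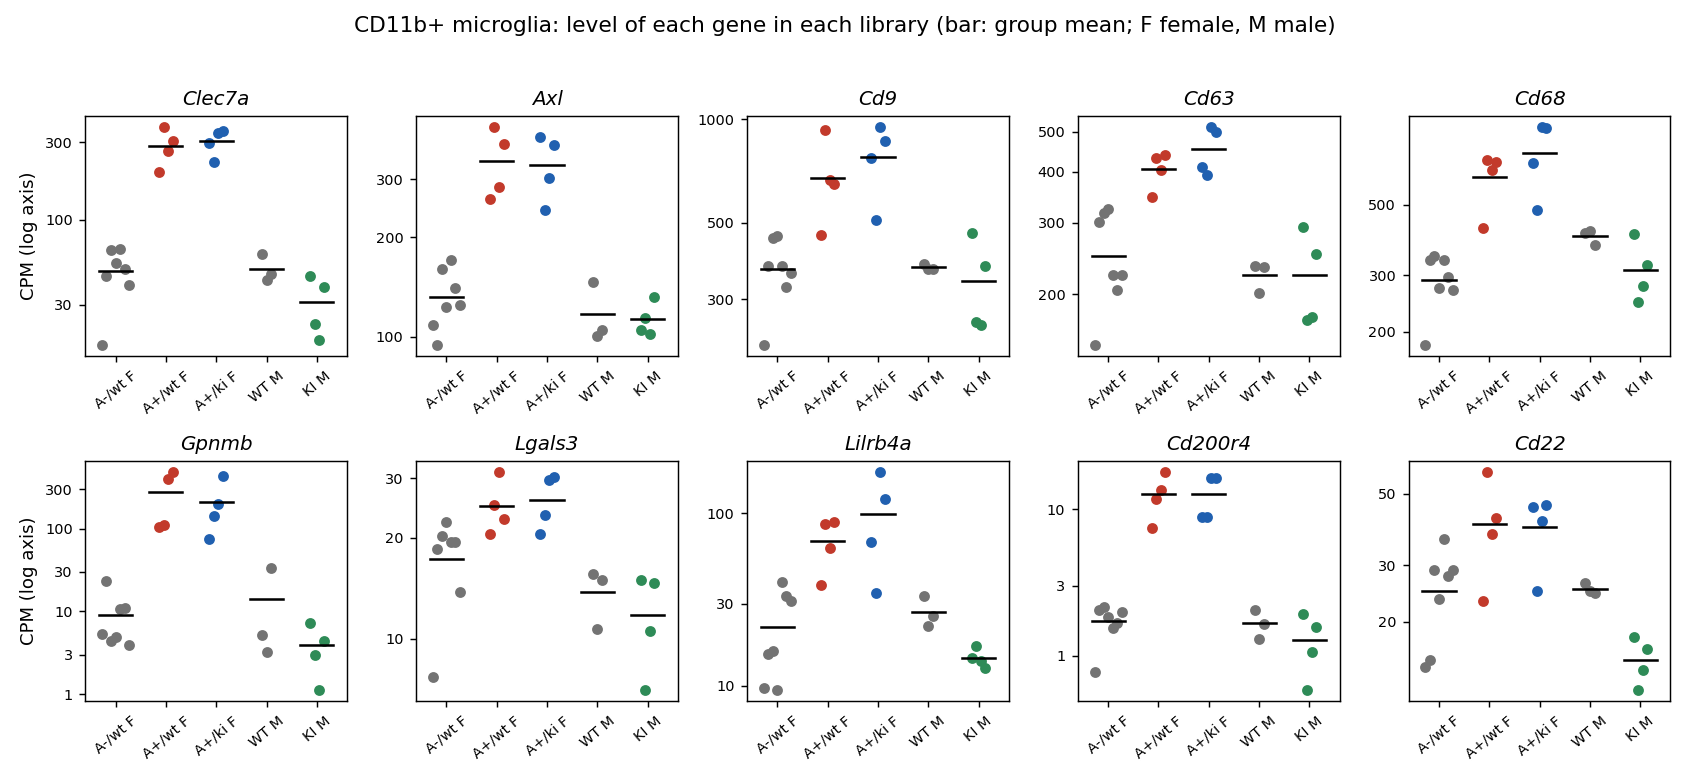
Level of the 10 genes in CD11b+ microglia, in CPM on log axes, with 1 point per library and a bar at each group mean, for A-/Pwt/wt (n = 7), A+/Pwt/wt (n = 4) and A+/Pki/ki females (n = 4) and for WT (n = 3) and KI males (n = 4). The APP/PS1 groups overlap each other for all 10 genes and lie above all A- females for 7, whereas *Lgals3*, *Lilrb4a* and *Cd22* overlap the A- range, and the KI males lie below the WT males without overlap for *Lilrb4a* and *Cd22*.

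In total, 7 of the 10 genes had all A+/Pwt/wt libraries above all A-/Pwt/wt libraries, as had 1.95% of all genes tested. The same 7 were above in A+/Pki/ki mice, where the share over all genes was 2.5%. The 3 that overlapped were *Lgals3*, *Lilrb4a* and *Cd22* in both cases. The median log2FC of the 10 genes was 1.23 for A+/Pwt/wt (all genes −0.03) and 1.33 for A+/Pki/ki (all genes −0.01). Since the genes were chosen on this contrast, nothing is read from these counts. Both contrasts share the same 7 A- libraries. On a second scale, in which the counts are divided by the summed counts of 12 myeloid reference genes such as *Csf1r*, 8 of the 10 were apart in each genotype, and *Lilrb4a* joined the 7. The share of all genes that were apart on this scale was not counted, so nothing is read from this count either. The median of all genes was −0.15 and −0.32 on this scale, and the medians of the 10 were 1.14 and 1.03.

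Per kilobase of exon, the order of the levels in A+/Pwt/wt microglia started with *Cd68* at 485 CPM per kb, followed by *Cd9* at 330 CPM per kb. *Cd63* (110) and *Clec7a* (108) were next. *Axl* was at 67.7, *Gpnmb* at 41.9, *Lgals3* at 13.4, *Lilrb4a* at 13.3, *Cd22* at 7.98 and *Cd200r4* at 6.16 CPM per kb. Neighbours in this order overlapped between libraries except for *Cd9*, which was 226 CPM per kb or more, and *Cd63*, which was 119 CPM per kb or less. In A-/Pwt/wt microglia, *Cd68* (232) and *Cd9* (179) also led, whereas *Clec7a* was at 18.3, *Gpnmb* at 1.38 and *Cd200r4* at 0.838 CPM per kb. The order over groups was the same for all 10 genes in females, with the means of both APP/PS1 genotypes above A-/Pwt/wt and the APP/PS1 genotypes overlapping each other.

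Relatives of the 10 genes were taken from lists of gene families, which were compiled with earlier results of these data known and are no independent evidence. In A+/Pwt/wt compared with A-/Pwt/wt microglia, 224 of 17355 genes passed an adjusted p of 0.05 in edgeR's quasi-likelihood test (1.29%), of which 175 were higher (1.01% of all genes) and 49 lower (0.282%). The 224 became 91 without mouse 380, 95 without 367, 97 without 375, between 134 and 137 without 224, 225 or 243, and 497 without 223. Of 14 C-type lectin receptors, 1 rose and 2 fell. *Clec1a* rose (log2FC 1.16, SE 0.20, adjusted p 0.0141), and the macrophage lectin *Clec10a* (log2FC −1.34, SE 0.29, adjusted p 0.0436) and *Clec4a2* (log2FC −0.77, SE 0.17, adjusted p 0.0487) fell. *Clec4n* (Dectin-2) averaged 2.38 and 4.13 CPM and did not pass (adjusted p 0.464).

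None of the 4 TAM genes other than *Axl* passed the test (edgeR). *Mertk* averaged 360 CPM in A+/Pwt/wt and 320 CPM in A-/Pwt/wt mice, *Tyro3* 13.5 and 19.2 CPM, and the ligand *Gas6* 227 and 292 CPM. Of 12 tetraspanins, 0 passed, and *Cd81* averaged 890 and 893 CPM. Of the LAMP family, 0 of 4 passed, with *Lamp1* at 1015 and 799 CPM and *Lamp2* at 453 and 310 CPM. In A+/Pki/ki mice, *Lamp2* rose to 533 CPM (log2FC 0.78, SE 0.17, adjusted p 0.0453).

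Among 5 tested galectins and their partners, *Lgals3bp*, which encodes a galectin-binding glycoprotein, rose from 234 to 666 CPM (log2FC 1.52, SE 0.18, adjusted p 0.000839). *Lgals1* averaged 12.8 and 17.2 CPM and *Lgals9* 160 and 148 CPM, and neither passed. Of 7 Siglecs, *Siglecf* rose from 19.1 to 46 CPM (log2FC 1.28, SE 0.26, adjusted p 0.0297), whereas *Siglech* averaged 734 and 754 CPM. Of the 6 LILR and PIR receptors, 0 passed, and *Lilrb4b*, the closest relative of *Lilrb4a*, averaged 17.6 and 14.7 CPM. In the CD200 family, *Cd200r1*, the receptor with the known inhibitory function, averaged 10.1 and 10.7 CPM, and the ligand *Cd200* 20.7 and 24.7 CPM. *Cd200r2* and *Cd200r3* averaged at most 0.124 CPM in each female group and were not tested.

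Of the 23 tested phagocytic receptors and adaptors, *Itgax* (CD11c) rose from 39.8 to 432 CPM (log2FC 3.46, SE 0.33, adjusted p 0.000179), and the scavenger receptor *Cd36* fell (log2FC −0.78, SE 0.16, adjusted p 0.0302). Of 9 genes of Dectin-1 signalling, 8 of inhibitory phosphatases and 13 of lysosomal transcription and the endolysosome, 0 passed. Of 35 other DAM genes, 24 rose and 0 fell, among them *Baiap2l2* (log2FC 5.34), *Mamdc2* (4.04), *Cst7* (5.02) and *Igf1* (3.27). This DAM list was compiled with such contrasts known and is no independent evidence. In A+/Pki/ki compared with A-/Pwt/wt mice, 1.64% of all genes passed, with 1.35% higher and 0.287% lower. These 286 genes became 57 without mouse 405, 73 without 394, between 125 and 139 without 224, 225, 243 or 244, 182 without 236, and 1097 without 335. The same direction was found for *Clec1a*, *Clec10a*, *Lgals3bp*, *Siglecf*, *Itgax* and *Cd36*, and 26 of the 35 DAM genes rose. *Tyrobp*, the signalling adaptor of *Trem2* (log2FC 1.03, SE 0.22, adjusted p 0.0396), also passed in A+/Pki/ki mice, whereas its own difference between A+/Pki/ki and A+/Pwt/wt did not pass (log2FC 0.10, edgeR adjusted p 0.865). Scaled to the myeloid reference genes, all relatives and DAM genes that had passed kept their sign. Of those that were higher, 26 of 28 still passed in A+/Pwt/wt and 25 of 33 in A+/Pki/ki mice, and of those that were lower 1 of 3 and 0 of 2. *Clec10a* (log2FC −1.35 in A+/Pwt/wt and −1.67 in A+/Pki/ki mice) and *Cd36* (−0.84 and −1.18) no longer passed in either genotype, although on this scale their differences were at least as large. *Clec1a* (0.72) and *Lamp2* (0.47) no longer passed in A+/Pki/ki mice, nor did 2 of the 24 DAM genes in A+/Pwt/wt and 5 of the 26 in A+/Pki/ki mice.

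Markers of border macrophages, which are also CD11b+, were lower in A+/Pwt/wt mice for 9 of 9 genes (median log2FC −1.01), of which 3 passed. They summed to 697 CPM in A+/Pwt/wt and 1329 CPM in A-/Pwt/wt mice, with *Stab1* as the most abundant at 486 and 908 CPM. Neutrophil markers were negative for 10 of 10 genes in A+/Pwt/wt (median −0.97) and positive for 10 of 10 in A+/Pki/ki against A-/Pwt/wt mice (1.32), with 0 passing. In A+/Pki/ki mice, border macrophage markers were also negative for 9 of 9 genes (median −0.81), of which *Cbr2* passed, and summed to 847 CPM with *Stab1* at 603 CPM. All 15 neuron (−0.88), 10 oligodendrocyte (−0.53), 6 oligodendrocyte precursor (−0.72), 10 endothelial and mural (−0.65) and 6 choroid plexus and ependyma markers (−0.88) and 9 of 10 astrocyte markers (−0.70) were negative as well, with 0 passing. The part of these cells in the levels of the 10 genes and their relatives was not tested.

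In cortex, only 1 A-/Pwt/wt library was available, so the spread between A- mice is unknown and no test was run. The intervals given here cover counting error only. *Clec7a* had 7 counts there, or 0.167 CPM (exact 95% Poisson interval 0.0671 to 0.344 CPM). It was 14.5, 15.2, 15.8 and 25.2 CPM in A+/Pwt/wt and 12.6, 13.6, 15.3 and 17.6 CPM in A+/Pki/ki cortex, with means 106-fold and 88.5-fold above the A- library. All 8 APP/PS1 libraries were far above the upper bound of this interval. *Lilrb4a* had 2 counts in the A- library and was 0.956, 1.62, 1.76 and 2.41 CPM in A+/Pwt/wt cortex, a ratio of 35.4 with an exact 95% Poisson interval of 9.79 to 292 from the A- count alone. *Cd200r4* had 0 counts, which allows up to 3 counts or 0.0715 CPM at a one-sided 95% limit, and was 0.597, 0.604, 0.956 and 1.64 CPM in A+/Pwt/wt cortex, with a mean 13.3 times this floor. Set against the upper end of the two-sided exact 95% Poisson interval, as used for *Clec7a* and *Lilrb4a*, this mean was 10.8 times as high.

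The other lysosomal and surface members differed less in cortex. *Gpnmb* was 3.15 CPM in the A- library, 5.44, 15.7, 16.1 and 35.4 CPM in A+/Pwt/wt cortex and 10.6, 13.8, 16.2 and 16.5 CPM in A+/Pki/ki cortex, a ratio of 5.78 for A+/Pwt/wt. *Cd68* was 10.2 CPM in the A- library and 32.2, 33.8, 37.5 and 45.6 CPM in A+/Pwt/wt cortex, a ratio of 3.65. *Lgals3* was 0.525 CPM in the A- library and 1.48 to 1.91 CPM in A+/Pwt/wt cortex, a ratio of 3.27. All APP/PS1 libraries were above the A- library for these 3 genes. The share of all genes with this order was not counted, so nothing is read from it.

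*Cd22* was 0.644 CPM in the A- library and 1.31 to 2.22 CPM in A+/Pwt/wt cortex, and *Cd9* was 29 CPM and 61.1 to 86.5 CPM. *Cd63* was 50.5 CPM in the A- library and 59.7 to 86.7 CPM in A+/Pwt/wt cortex (ratio 1.48), and *Axl* 49.2 CPM and 59.1 to 68.2 CPM (ratio 1.28). The ratio of *Lilrb4a* has a wide counting interval and that of *Cd200r4* is set against the floor, so the members cannot be fully ranked. With both genes at 3 counts in the A- library, the median log2 ratio of the 10 was 1.79, against 0.012 over all 18810 genes. The summed myeloid reference genes were also higher in A+/Pwt/wt cortex, at 1047 CPM compared with 454 CPM in the A- library. Scaled to these genes, the median log2 ratio of the 10 was 0.59, *Clec7a* was at 5.51, and *Axl* (−0.84) and *Cd63* (−0.65) were lower in A+/Pwt/wt cortex than in the A- library.

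**Figure D2:**
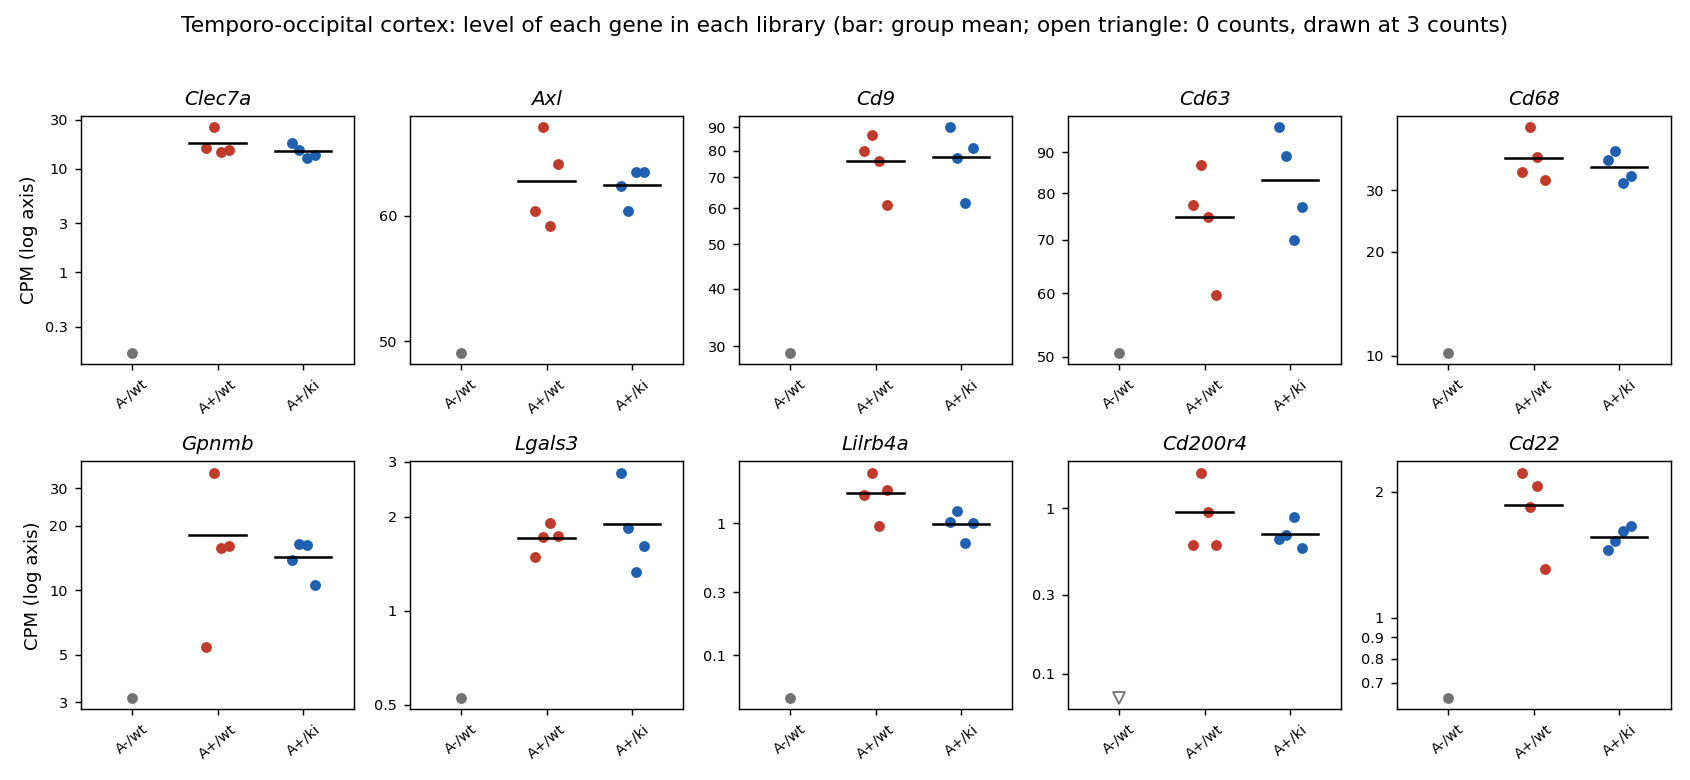
Level of the 10 genes in temporo-occipital cortex, in CPM on log axes, with 1 point per library and a bar at each group mean for A-/Pwt/wt (n = 1), A+/Pwt/wt (n = 4) and A+/Pki/ki females (n = 4), and an open triangle at the level of 3 counts where a library had 0 counts. All 8 APP/PS1 libraries lie above the single A-/Pwt/wt library for every gene, and the share of all genes with this order was not counted. The mean of A+/Pwt/wt is 1.28 times that library for *Axl* and 106 times for *Clec7a*, and *Lilrb4a* and *Cd200r4* have 2 and 0 counts in it.

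Set beside cortex, CD11b+ microglia of A+/Pwt/wt mice had 5.4-fold higher *Axl* and 5.43-fold higher *Cd63*, the smallest ratios of the 10, and 41.1-fold higher *Lilrb4a*, the largest. The ratio was 16.2 for *Clec7a*, 16.3 for *Cd68* and 15 for *Gpnmb*. These tables were normalized separately.

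The PLCγ2-P522R variant was then assessed on the APP/PS1 background. In CD11b+ microglia, the A+/Pki/ki and A+/Pwt/wt libraries overlapped for all 10 genes. None of the 10 passed in edgeR's quasi-likelihood test, as did none of all 17039 genes (0%), and 0 of 10 had an unadjusted p under 0.05, compared with 3.37% of all genes. By DESeq2's Wald test and by limma, 0 of the 10 passed as well. The log2FC was positive for 5 and negative for 5 of the genes, with a median of 0.02 (all genes 0.00). Scaled to the myeloid reference genes, 8 of the 10 were negative and the median of all genes moved to −0.16, again with 0 of the 10 passing.

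The mean level of *Clec7a* (± SD over 4 mice) was 285 ± 73.5 CPM without and 304 ± 55.8 CPM with the variant, a log2FC of 0.03 (SE 0.20) with an edgeR adjusted p of 0.961. *Cd68* averaged 609 ± 126 and 727 ± 190 CPM (log2FC 0.19, SE 0.23, adjusted p 0.853 in edgeR). The extremes were *Lilrb4a*, with 69.3 ± 23.6 and 99.4 ± 60.9 CPM (log2FC 0.46, SE 0.46), and *Gpnmb*, with 273 ± 194 and 210 ± 156 CPM (log2FC −0.45, SE 0.66). Each of these differences was smaller than the larger SD of the groups compared. With 1 library left out, the log2FC ranged from 0.055 to 0.36 for *Cd68* and from 0.041 to 0.76 for *Lilrb4a*. For *Gpnmb* the range was −1.05 to −0.0046. Markers of other cells also had 1 sign between these groups, with 0 passing. All 15 neuron (median log2FC −0.84), 10 astrocyte (−0.67), 10 oligodendrocyte (−0.29), 10 endothelial and mural (−0.47) and 6 choroid plexus markers (−1.11) were negative, and all 12 homeostatic (0.22) and 12 myeloid reference genes (0.19) were positive. Neutrophil markers had higher means in A+/Pki/ki mice for 10 of 10 genes (median log2FC 2.47), of which 8 had an unadjusted p under 0.05. The most abundant neutrophil marker, *S100a9*, was 15.5 to 41.8 CPM in A+/Pwt/wt and 13.1 to 493 CPM in A+/Pki/ki mice, so that these groups overlapped, and the part of all these cells in the levels of the 10 genes was not tested.

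In cortex, 0 of the 10 passed (edgeR, 0% of 18640 genes). One of the 10 had an unadjusted p under 0.05, compared with 2.76% of all genes. This was *Lilrb4a*, which was 0.702, 1.01, 1.02 and 1.24 CPM in A+/Pki/ki and 0.956, 1.62, 1.76 and 2.41 CPM in A+/Pwt/wt cortex. The groups overlapped, and the difference did not hold after adjustment over all genes (log2FC −0.77, SE 0.29, edgeR p 0.0193, adjusted p 0.9997). *Lilrb4a* thus had a lower mean in cortex and a higher mean in CD11b+ microglia of A+/Pki/ki mice, and neither difference passed. The log2FC was negative for 7 of the 10 genes in cortex, with a median of −0.17 (all genes 0.00). Without A+/Pwt/wt mouse 257, it was negative for 4 of the 10, with a median of 0.03. Among markers of other cells, 4 of 4 tested for B cells were negative (median −0.57). Endothelial and mural markers were positive for 9 of 10 (0.25), and choroid plexus and ependyma markers for 6 of 6 (0.47). Of these markers 0 passed, and their part in the levels of the 10 genes was not tested. *Clec7a* averaged 17.7 ± 5.05 CPM in A+/Pwt/wt and 14.8 ± 2.19 CPM in A+/Pki/ki cortex (log2FC −0.26, SE 0.17), and *Axl* 63.1 ± 4.16 and 62.7 ± 1.63 CPM (log2FC −0.01, SE 0.06). With 1 library left out, the log2FC of *Clec7a* ranged from −0.35 to −0.039.

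**Figure D3:**
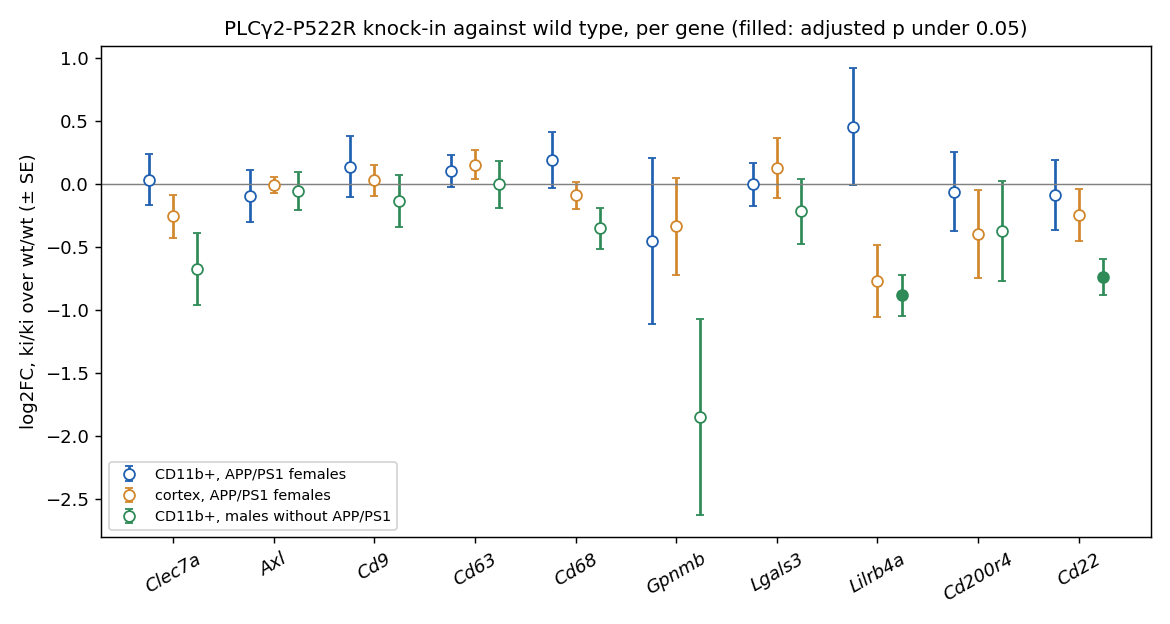
Log2FC of PLCγ2-P522R carriers over non-carriers (y axis) for the 10 genes (x axis), in CD11b+ microglia and cortex of APP/PS1 females (n = 4 and 4 each) and in CD11b+ microglia of males without APP/PS1 (4 KI, 3 WT), with bars of 1 SE and filled points where the adjusted p was under 0.05. The 2 filled points are *Lilrb4a* (−0.88) and *Cd22* (−0.73) in males, and *Gpnmb* has the widest bars.

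The same variant was assessed without the transgene in male mice. Of the 10 genes, 2 passed the test, and both fell in KI microglia. In this comparison, 16.4% of all 16373 genes passed, with 5.26% of all genes lower and 11.1% higher in KI. The 2685 genes became 894 without WT mouse 102 and 5439 without KI mouse 104, and the count moved by over 1.5 times without any library except that of KI mouse 84. *Lilrb4a* was 22.3, 25.3 and 33.1 CPM in WT and 12.7, 14, 14.6 and 17.1 CPM in KI males. All KI libraries were below all WT libraries (log2FC −0.88, SE 0.16, edgeR adjusted p 0.00855). *Cd22* was 24.5, 25 and 26.5 CPM in WT and 12.3, 14.2, 16.5 and 17.9 CPM in KI males, again without overlap (log2FC −0.73, SE 0.14, edgeR adjusted p 0.0105). The summed B cell markers were also lower without overlap, at 332 to 336 CPM in WT and 211 to 321 CPM in KI males. This sum was mostly *Ighm* (means 325 and 245 CPM). Of the 3 B cell markers tested, 2 were negative, 1 was positive and 0 passed. Their part in the level of *Cd22* was not tested. Of the 10 genes, 2 (*Lilrb4a* and *Cd22*) had all KI libraries below all WT libraries, as had 15.4% of all genes. *Cd200r4* of the CD200 receptor family, at 1.67 ± 0.376 CPM in WT and 1.28 ± 0.585 CPM in KI males, did not pass (log2FC −0.37, SE 0.40). *Lilrb4a* passed without any single library, and *Cd22* no longer passed when any 1 of the 3 WT libraries was left out (adjusted p 0.0532 to 0.0647), at log2FC values of −0.72 to −0.66.

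The remaining members did not pass. *Clec7a* was 42.5, 46.4 and 61.4 CPM in WT and 18.4, 22.9, 38.8 and 45.4 CPM in KI males, and 3 of the 4 KI libraries were below the lowest WT library (log2FC −0.67, SE 0.29, edgeR adjusted p 0.136). *Gpnmb* was 3.26, 5.23 and 33.3 CPM in WT and 1.11, 2.97, 4.34 and 7.13 CPM in KI males. Its log2FC of −1.84 (SE 0.78, edgeR adjusted p 0.132) rested on 1 WT library at 33.3 CPM, and without this library it was −0.08. *Cd68* was at 398 ± 20.7 CPM in WT males and at 313 ± 68.4 CPM in KI males (log2FC −0.35, SE 0.16, edgeR adjusted p 0.167). *Axl*, *Cd9*, *Cd63* and *Lgals3* had log2FC values between −0.22 and −0.00, and these 4 were positive when scaled to the myeloid reference genes. In all, the log2FC was negative for 10 of 10 genes, with a median of −0.36 (all genes −0.00). The median was −0.19 without KI mouse 136 and −0.55 without KI mouse 104. Without WT mouse 101, 8 of the 10 were negative.

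Markers of other cell types moved in the same comparison. All 15 neuron markers were higher in KI males and passed (median log2FC 2.12), and their sum was 217 to 314 CPM in WT and 684 to 1584 CPM in KI libraries. *Camk2a* was the most abundant, at 116 CPM in WT and 595 CPM in KI males. All 10 astrocyte markers (median log2FC 1.14) and 7 of 10 oligodendrocyte markers (median 1.09) also passed and were higher, led by *Slc1a2* and *Mbp*. In contrast, all 12 homeostatic microglia markers (median −0.39, 1 passed) and all 12 myeloid reference genes (median −0.25, 1 passed) had negative values. The median of the 10 members, −0.36, lay between these 2 medians. The share of counts from mitochondrial genes also differed without overlap. It was 3.97, 4.44 and 5.02% in WT and 7.4, 10.2, 11.8 and 12.8% in KI males, and its part in the members' levels was not tested.

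When the counts were divided by the summed myeloid reference genes, neither gene passed in males. *Lilrb4a* was then at −0.52 (adjusted p 0.253) and *Cd22* at −0.43 (adjusted p 0.184), the median of all genes moved to 0.33, and that of the 10 members to −0.10. Of the genes that passed, 67.9% were higher in KI with TMM scaling and 99.7% with this scaling. On this scale, *Cd22* was 22.1 to 24.3 CPM in WT and 14.3 to 18.1 CPM in KI libraries, still without overlap, whereas *Lilrb4a* overlapped. Leaving out the 2 KI mice with the highest neuron markers, a choice made after the values were seen, left fewer KI libraries. In this fit, 922 of 15881 genes passed, 257 of them lower. *Lilrb4a* and *Cd22* were among the 257 (log2FC −0.98 and −0.55, edgeR adjusted p 0.0345 and 0.0471), and only 5 of the 10 values were negative (median −0.05). The part of the neuronal and glial RNA in the lower levels of *Lilrb4a* and *Cd22* was not tested.

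**Figure D4:**
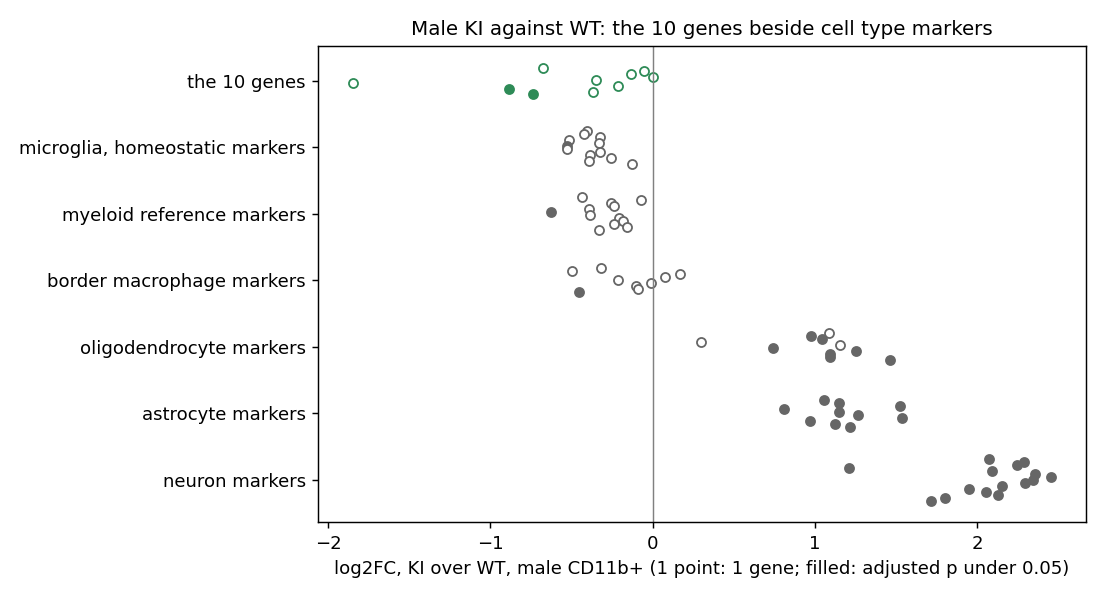
Log2FC of KI over WT in male CD11b+ microglia (x axis) for the 10 genes and for marker lists of microglia, myeloid cells, border macrophages, oligodendrocytes, astrocytes and neurons (rows), with 1 point per gene, filled where the adjusted p was under 0.05. The 10 genes (median −0.36) lie on the side of the homeostatic markers (median −0.39), and the neuron markers (median 2.12) on the other.

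Relatives of the members that passed in male KI microglia are given with TMM scaling, and their counts stand beside 5.26% of all genes that passed as lower and 11.1% as higher. Scaled to the myeloid reference genes, 0 of the 14 relatives named here as lower passed, 13 of them stayed negative and *Mcoln1* turned positive (0.04), whereas 6 of the 10 that were higher passed. *Lilrb4b* fell from 22.8 to 12.1 CPM (log2FC −0.91, SE 0.25, edgeR adjusted p 0.0364), and *Lair1*, an inhibitory collagen receptor, from 380 to 258 CPM (log2FC −0.56, SE 0.13, edgeR adjusted p 0.0204), which were 2 of the 6 LILR and PIR receptors. Since the paper reports counts of uniquely mapped reads, reads from windows shared by *Lilrb4a* and *Lilrb4b* may be missing from both counts. Of 7 Siglecs, *Cd33* fell from 826 to 507 CPM (log2FC −0.71, SE 0.13, edgeR adjusted p 0.00882) and *Siglec1* from 25.4 to 16 CPM (log2FC −0.66, SE 0.19, edgeR adjusted p 0.0418). *Siglech*, at 1089.7 CPM in WT and 757 CPM in KI males, did not pass.

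Of 9 genes of Dectin-1 signalling, 3 fell, namely *Malt1* (log2FC −0.49), *Nfatc2* (−0.54) and *Nfatc1* (−0.37). Of 8 phosphatase genes, *Inpp5d* (SHIP1) fell (log2FC −0.54) and *Ptpn11* (SHP2) rose (0.70). Among the TAM genes, *Mertk* fell (log2FC −0.59, edgeR adjusted p 0.0159), whereas *Tyro3*, which is abundant in neurons, rose (1.56, edgeR adjusted p 0.00383). *Tspan7*, *Tspan3* and *Lamp5* also rose (0.66, 0.40 and 2.81), as did *Cd200* (0.85), a ligand made by neurons. *Gas6*, *Cd81*, *Lamp1*, *Lamp2*, *Lgals1*, *Lgals9*, *Clec4n* and *Cd200r1* did not pass. Of 14 C-type lectin receptors and 6 galectins, 0 passed. Among phagocytic receptors, *Lrp1* and *Stab1* fell and *Mfge8* and *Megf10*, both made by astrocytes, rose, and of 13 lysosomal genes *Tfe3* and *Mcoln1* fell. *Csf1* fell (−0.67) and *Gm1673* and *Fabp5* rose among 34 other DAM genes. The same lists held 0 genes that passed in either KI comparison of APP/PS1 mice.

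The difference between the male and the APP/PS1 KI effect was tested as an interaction in CD11b+ microglia. None of the 10 passed, as did none of all 17619 genes (edgeR, 0%). One of 10, *Lilrb4a*, had an unadjusted p under 0.05 (difference −1.31, SE 0.55, edgeR p 0.0304, adjusted p 0.162), compared with 26.5% of all genes. The difference was negative for 9 of 10, with a median of −0.39 (all genes 0.01). Scaled to the myeloid reference genes, it was negative for 5 of 10, with a median of 0.02 (all genes 0.48). In the same contrast, all 12 homeostatic markers (median −0.54) and 12 myeloid reference genes (−0.47) were negative and all 15 neuron markers positive (3.04), with 0 passing, and their part in the members' values was not tested. DESeq2's Wald test passed 0 of the 10 and 1167 of all genes. Hence the lower *Lilrb4a* and *Cd22* of male KI mice were not shown to differ from the effect in APP/PS1 mice, and sex, transgene and batch tag all differ between these settings. Without A+/Pki/ki mouse 335, 6199 genes passed, *Cd68*, *Lilrb4a* and *Cd22* among them.

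The spread between mice of 1 group was large for some members and small for others. Within A+/Pki/ki CD11b+ libraries, the coefficient of variation (CV) was 18.3% for *Clec7a*, 26.1% for *Cd68*, 61.3% for *Lilrb4a* and 74% for *Gpnmb*. Per myeloid reference count, it fell for 10 of the 10 genes, to 3.05%, 11.4%, 51.7% and 64.1%, respectively. It fell for 10 of 10 also in A-/Pwt/wt, and for 6 of 10 in A+/Pwt/wt libraries. Mouse 331 was the lowest of the A+/Pwt/wt mice for 10 of 10 genes, mouse 335 the lowest of the A+/Pki/ki mice for 7, and mouse 223 the lowest of the A-/Pwt/wt mice for 7, and each had the highest mean log2 CPM of neuron markers in its group (5.36, 5.71 and 6.63).

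**Figure D5:**
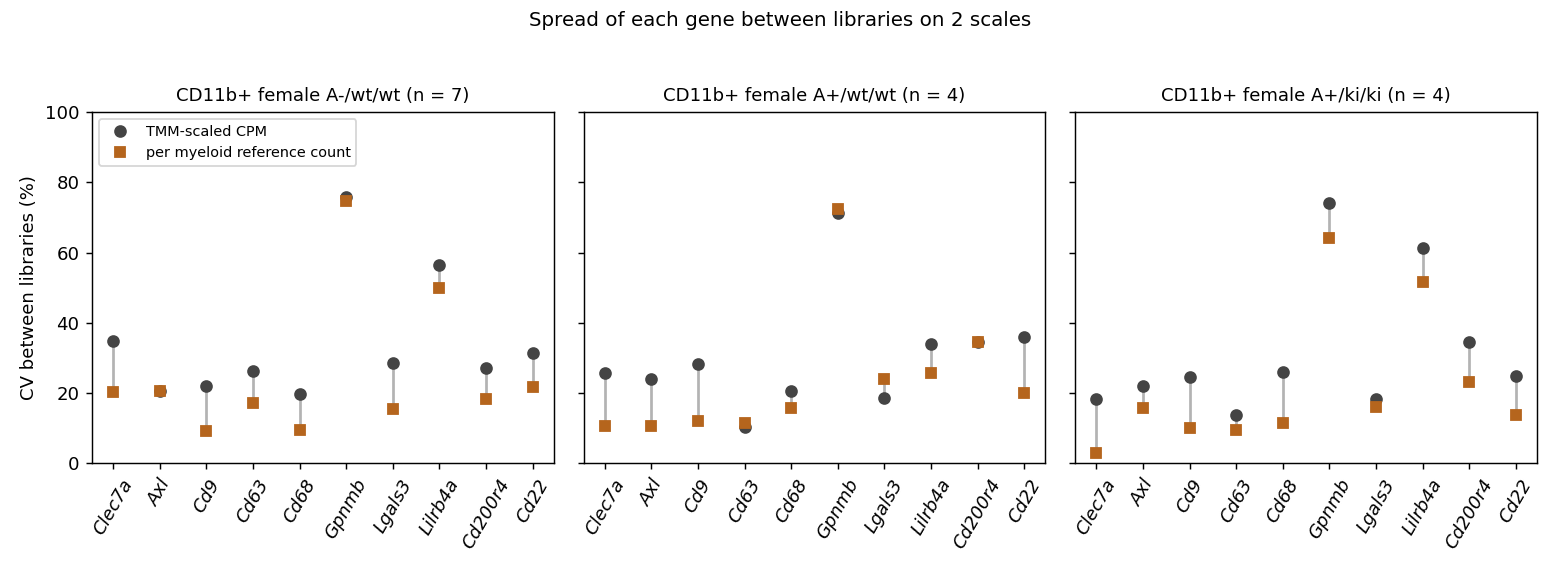
CV between libraries in percent (y axis) for each of the 10 genes (x axis) in the 3 female CD11b+ groups, from TMM-scaled CPM (circles) and from counts per summed myeloid reference count (squares). The CV of *Clec7a* in A+/Pki/ki falls from 18.3% to 3.05%, whereas that of *Gpnmb* stays at 64.1% or above in each group.

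The likeness of other genes to the members was measured as Pearson's r with their mean z-scored log2 CPM. Over the 15 female CD11b+ libraries, the 5 most similar of 11283 genes were *Glb1* (r = 0.988), *Gusb* (0.988), *Ctsb* (0.987), *Lpl* (0.986) and *Ppt1* (0.985), and 1.28% of genes had an r over 0.9. *Glb1*, *Gusb*, *Ctsb* and *Ppt1* encode lysosomal enzymes, and *Lpl* encodes lipoprotein lipase. *Ctsb* averaged 2224 CPM in A-/Pwt/wt, 4469 CPM in A+/Pwt/wt and 4953 CPM in A+/Pki/ki mice. The libraries share their groups, neuronal RNA and batch tags, and the values are descriptive. Of the members, *Cd68* (0.985) and *Clec7a* (0.981) were most like the mean of the other 9, and *Lgals3* (0.806) and *Cd22* (0.792) least.

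Within the 8 APP/PS1 libraries, after each genotype's mean was subtracted, the most similar genes were *Iffo1* (r = 0.995), *Abhd12* (0.995), *Fam214b* (0.994), *Tom1* (0.993) and *Zmym3* (0.993). Here 13.4% of 11282 genes had an r over 0.9. None of these 5 is among the 5 of the 15 libraries. *Cd68* (0.987) and *Cd63* (0.957) were closest to the other members, whereas *Gpnmb* had an r of 0.48, the lowest of the 10. In these 8 libraries, the mean log2 CPM of neuron markers ranged from 2.37 (mouse 405) to 5.71 (mouse 335). The part of neuronal RNA in these r values was not tested, and they are descriptive.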

How the data were processed

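RNA-seq was made from CD11b+ cells, isolated from dissociated brain with magnetic beads, and from temporo-occipital cortex. Per the submitters' processing notes, FastQC 0.11.7, Trimmomatic 0.39, STAR 2.7.9a, featureCounts 2.12.0 and R 4.2.2 were used. The authors deposited raw counts per gene in 3 tables (female CD11b+, male CD11b+ and cortex), counted irrespective of strand and, per the paper, from uniquely mapped reads. They also deposited normalized values on a log2-like, variance-stabilized scale, used here only for limma.

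The members and gene lists were chosen with earlier results of these data known. Samples were grouped by their labels, and 0 sample columns were left unmatched. Genes with 10 counts in at least 3 libraries were fitted within each comparison with edgeR 4.0.16 (TMM, glmQLFit, glmQLFTest) in R 4.3.3, with Benjamini-Hochberg adjustment over all genes and a threshold of 0.05. Tables were scaled separately. Alternatives were DESeq2 1.42.0 (size factors, Wald test), limma 3.58.1, no filter, filterByExpr, all groups in the fit, scaling to 12 myeloid reference genes and leaving out each library. The omission of libraries with the highest neuron markers was added after the data were seen. The genes named were all members, up to 4 genes per family list that passed (by smallest p), fixed closest relatives, the most abundant gene of each marker list, and for likeness the 5 genes of highest r with a mean of at least 5 CPM. The scripts were tested on simulated data. Gene positions are from Gencode M21 (GRCm38), which held 99.53% of the deposited gene identifiers. Counting intervals cover counting error only. Where nothing states separate cultures or litters, p-values measure the spread between these mice. Some genes that this rule would name are not reported here.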

Additional observations from a re-analysis of the deposited data

Results flagged for a closer look

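In 3 of 60 combinations of a gene and a group, 1 library stood apart from the others by Dixon's criterion, which chance gives in about 1 of 20. *Cd68* in CD11b+ A+/Pwt/wt microglia was lowest in mouse 331, at 422 CPM, and this mouse was lowest of its group for 10 of the 10 genes. *Clec7a* in A+/Pwt/wt cortex was highest in mouse 257, at 25.2 CPM, and this mouse was highest of its group for 8 of the 10. *Gpnmb* in CD11b+ A-/Pwt/wt microglia was highest in mouse 224, at 23 CPM. The causes were not tested.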

How the results depend on the processing

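The number of the 10 genes that passed in male KI microglia was 2, and it was 0 when scaled to the myeloid reference genes, 4 with no filter, and 1 to 4 when 1 library was left out. The number over all genes moved too. It was 2685 of 16373, with 1432 of 16373 on the myeloid scale and 3200 of 30652 with no filter. Without KI mouse 104, 5439 of 16242 genes and 4 of the 10 passed, and without WT mouse 102, 894 of 16193 genes and 1 of the 10. In the interaction, 0 of the 10 passed, and 0 to 3 when 1 library was left out, with 3 without A+/Pki/ki mouse 335, where 6199 of 17495 genes passed. In cortex, the median log2 ratio of A+/Pwt/wt to the A- library was 1.79, and 0.591 on the myeloid scale.

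Of the log2FC values outside the omission of single libraries, 388 kept their direction (in the KI comparisons and the interaction, also their call), 26 changed sign, 2 gained and 2 lost their call in males, and 2 moved by more than 1 SD. Calls of the members against A-/Pwt/wt were not counted. In CD11b+ A+/Pki/ki against A+/Pwt/wt, *Clec7a* was −0.12, *Cd9* −0.022 and *Cd63* −0.062 on the myeloid scale. *Lgals3* was 0.0060 with DESeq2 size factors, 0.0066 with its Wald test, 0.014 with limma and 0.061 with all groups, where *Cd200r4* was 0.0018. *Cd9* in cortex was −0.0062 on the myeloid scale. In males, that scale gave *Axl* 0.30, *Cd9* 0.14, *Cd63* 0.28 and *Lgals3* 0.054. Without the neuron-rich libraries, *Axl* was 0.019, *Cd9* 0.19, *Cd63* 0.29, *Lgals3* 0.11 and *Cd200r4* 0.065. *Cd63* was 0.0015 with size factors, 0.0014 with the Wald test and 0.044 with no filter. In the interaction, *Axl* was −0.0016 with no filter, and *Cd9* 0.16, *Cd63* 0.34, *Lgals3* 0.23 and *Cd200r4* 0.12 on the myeloid scale.

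Leaving out 1 library changed the sign of these values. In CD11b+ APP/PS1 microglia, *Clec7a* ranged from −0.10 to 0.17, *Axl* from −0.20 to 0.048, *Cd9* from −0.0018 to 0.31, *Lgals3* from −0.077 to 0.13, *Cd200r4* from −0.25 to 0.18 and *Cd22* from −0.27 to 0.13. In cortex, *Axl* ranged from −0.034 to 0.031, *Cd9* from −0.062 to 0.13, *Cd68* from −0.15 to 0.020, *Gpnmb* from −0.64 to 0.21 and *Lgals3* from −0.10 to 0.27. In males, *Axl* ranged from −0.13 to 0.18 and *Cd63* from −0.16 to 0.10. In the interaction, *Axl* ranged from −0.13 to 0.26, *Cd63* from −0.23 to 0.038, *Gpnmb* from −1.81 to 0.37 and *Lgals3* from −0.34 to 0.0050. The causes were not tested.

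DESeq2's Wald test passed more genes than edgeR, namely 7 against 0 for the KI effect in CD11b+ APP/PS1 microglia, 11 against 0 in cortex, 3719 against 2685 in males, 1167 against 0 in the interaction, and 636 against 224 and 932 against 286 for A+/Pwt/wt and A+/Pki/ki against A-/Pwt/wt. In cortex, 40 genes passed with no filter. On the myeloid scale, 1432 genes passed in males, and 141 and 106 in the comparisons with A-/Pwt/wt. No paired analysis was possible because the groups compared share fewer than 2 mouse numbers. The depth leaves *Clec7a*, *Lilrb4a* and *Cd200r4* at 7, 2 and 0 counts in the A- cortex library.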
